A study of Mus musculus with 10 samples.

Results

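*Fezf2* and 7 other genes of transcriptional regulators that mark projection neurons or their progenitors (*Fezf1*, *Bcl11a*, *Bcl11b*, *Tbr1*, *Tle4*, *Pou3f2* and *Pou3f3*) were followed in the cortical hem (CH) of wild-type and *Lmx1a*-/- mouse embryos. The 8 genes were found by symbol among the 52227 genes of the count table, and all 8 were among the 21664 genes that passed the filter of at least 10 counts in at least 3 libraries. They were chosen by a comparison of these same libraries: *Fezf2* ranked 5 by p in *Lmx1a*-/- against wild-type CH, and the other 7 were listed with it as genes of the same neuronal programme. The differences between genotypes in these 8 genes are therefore given as a description, with no test.

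The CH is the signaling center at the medial edge of the embryonic cortex, which borders the choroid plexus on one side and the hippocampal primordium on the other, and gives rise to Cajal-Retzius (CR) cells. It was isolated by laser capture microdissection at embryonic day 13.5 from 5 wild-type and 5 *Lmx1a*-/- embryos, each embryo giving 1 RNA-seq library from its pooled sections. *Lmx1a*-/- embryos were homozygous for *drJ*, a null allele of this LIM homeodomain transcription factor that acts in the whole embryo and not in the CH alone. Both groups were untreated and came from a colony on a mixed C57Bl6, FVB and CD1 background. The study used embryos of both sexes, although Y-linked transcripts were present in 1 of the 5 wild-type and in all 5 *Lmx1a*-/- libraries. The borders of the CH had been set by Lmx1a immunostaining of neighboring sections. Total counts ranged from 19407267 to 33130138 in wild-type and from 19145952 to 36462780 in *Lmx1a*-/- libraries.

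*Fezf2* and *Fezf1* encode zinc finger repressors of the forebrain. *Fezf2* is expressed by cortical progenitors and by the deep-layer neurons made from them, and is known as the selector gene of subcerebral projection neurons. *Bcl11b* (Ctip2) acts downstream of it in these neurons, *Bcl11a* (Ctip1) is its paralog, *Tbr1* specifies corticothalamic neurons and marks early-born glutamatergic neurons, and *Tle4* encodes a Groucho corepressor that binds Fezf2. *Pou3f2* (Brn2) and *Pou3f3* (Brn1) are POU homeobox genes that act together in upper-layer neurons and in the progenitors that make them. In the dorsal telencephalon, *Fezf2* is expressed in the cortical neuroepithelium, which lies next to the CH.

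Each of the 8 genes had at least 1 promoter window of 250 bases before its RefSeq start (GRCm38.p6), with 9 windows in all because *Tle4* had 2. Printed here, 5′ to 3′ and with CCAAT or its complement in capitals, are the windows of *Fezf2* and *Tle4*, the pair of genes past a false discovery rate (FDR) under 0.1 between genotypes, and of *Fezf1* and *Pou3f3*, which each had a neighboring gene past it. Bases that GENCODE M21 annotates as exon were left out, which shortened the *Fezf2* window to 156 bases and the *Fezf1* window to 152. All 250 bases of the *Fezf2* window lay inside the *Fezf2* gene as GENCODE M21 annotates it, and not upstream of that gene.
Fezf2 promoter, chr14:12345960-12346115, minus strand: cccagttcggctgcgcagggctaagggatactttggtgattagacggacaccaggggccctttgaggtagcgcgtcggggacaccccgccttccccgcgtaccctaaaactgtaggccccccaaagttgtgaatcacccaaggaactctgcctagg
Tle4 distal promoter, chr19:14598184-14598433, minus strand: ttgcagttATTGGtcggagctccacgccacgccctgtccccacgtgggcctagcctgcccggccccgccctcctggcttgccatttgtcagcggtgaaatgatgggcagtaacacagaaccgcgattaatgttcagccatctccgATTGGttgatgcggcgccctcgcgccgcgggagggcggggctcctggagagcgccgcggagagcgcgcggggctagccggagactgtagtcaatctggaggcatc
Fezf1 promoter, chr6:23248363-23248514, minus strand: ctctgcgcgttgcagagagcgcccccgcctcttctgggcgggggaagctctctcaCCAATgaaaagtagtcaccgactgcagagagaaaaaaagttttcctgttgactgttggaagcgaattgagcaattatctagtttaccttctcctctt
Pou3f3 promoter, chr1:42695518-42695767, plus strand: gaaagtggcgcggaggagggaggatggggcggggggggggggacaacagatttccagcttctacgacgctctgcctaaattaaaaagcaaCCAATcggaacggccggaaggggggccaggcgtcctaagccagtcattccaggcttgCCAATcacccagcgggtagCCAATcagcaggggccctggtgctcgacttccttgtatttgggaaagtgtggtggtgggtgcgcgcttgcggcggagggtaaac
The full windows of *Fezf1* and *Pou3f3* held CCAAT 3 times each on either strand (1 of the 3 is in the printed part of the *Fezf1* window), the distal *Tle4* window held it 2 times and that of *Fezf2* held none. Among all 32817 windows of the mouse table, 33.8% held CCAAT, and 5 of the 9 windows of these genes did. TAATTA, the core that homeodomain proteins bind, was present in 4.8% of all windows and in 1 of the 9, that of *Tbr1*, where both matches (0.445% of all windows had 2 or more) lay in an annotated exon and are not printed. The octamer ATGCAAAT, to which POU proteins bind, was in 1.6% of all windows and in none of the 9. These matches are letters in a window and were not tested for binding.

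*Fezf2* (ENSMUSG00000021743, chromosome 14 of GRCm38, 12342094 to 12348189, minus strand) was higher in every *Lmx1a*-/- library than in every wild-type library. Wild-type embryos 1 to 5 had 92.5, 79.7, 105, 75.7 and 88.5 CPM (counts per 1000000, TMM-scaled), while mutant embryos 1 to 5 had 196, 234, 173, 214 and 242 CPM. The lowest mutant library, embryo 3, stood well above the highest wild-type one, also embryo 3. Means were 88.3 ± 11.6 and 212 ± 28.1 CPM (SD, n = 5 embryos per genotype), and the log2 fold change was 1.26 (SE 0.11) in the edgeR fit. The spread was alike in both genotypes, with a coefficient of variation of 13.1% in wild-type and 13.3% in *Lmx1a*-/- CH. Leaving out each embryo in turn kept the log2 fold change between 1.20 and 1.33. In bulk tissue of this kind, more cells of a type and more RNA per cell cannot be told apart.

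**Figure D1:**
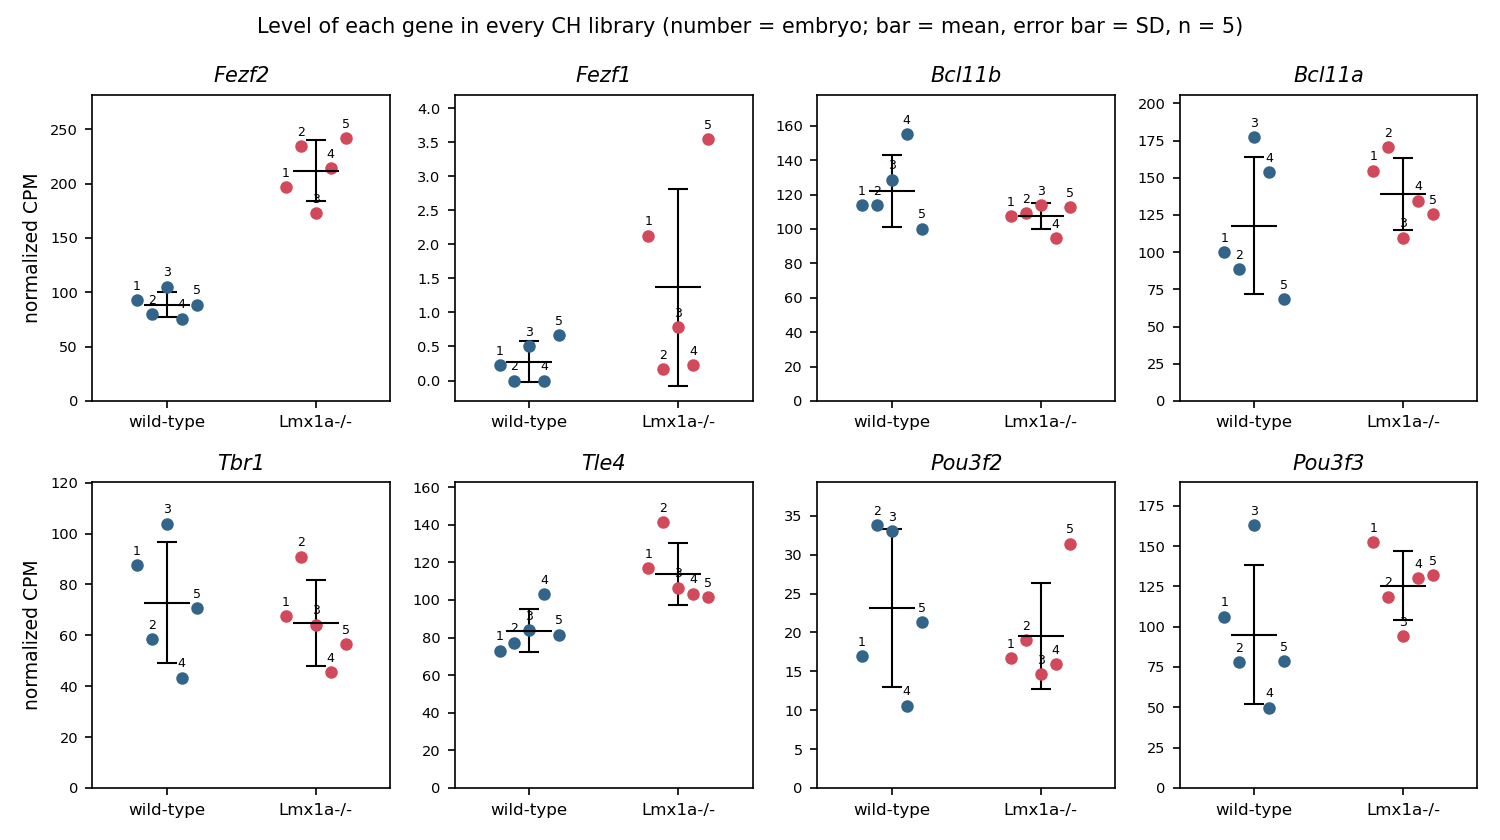
Normalized CPM (vertical axes, a scale for each gene) of the 8 genes in the 5 wild-type (blue) and 5 *Lmx1a*-/- (red) libraries, with embryo numbers beside the points, the mean as a horizontal bar and the SD as the error bar. The genotypes separate without overlap for *Fezf2* alone (75.7 to 105 against 173 to 242 CPM), and *Fezf1* stays under 4 CPM in all libraries.

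*Fezf1* (ENSMUSG00000029697, chromosome 6, 23245044 to 23248362, minus strand), the paralog of *Fezf2*, was close to the limit of detection in wild-type CH. Raw counts were 6, 0, 17, 0 and 18 in wild-type embryos 1 to 5 and 64, 3, 23, 8 and 102 in *Lmx1a*-/- embryos 1 to 5. The 0 in wild-type embryos 2 and 4 allows a level of up to 0.133 and 0.155 CPM, as 3 counts would give. These 2 levels are by total counts, without TMM scaling, and cover counting error only. *Lmx1a*-/- embryos 1 and 5 held 166 of the 200 mutant counts, at 2.13 and 3.55 CPM, while mutant embryos 2 and 4 were within the wild-type range. Means were 0.278 ± 0.299 and 1.37 ± 1.45 CPM (SD, n = 5 each), with a log2 fold change of 2.23 (SE 0.99). *Fezf1* made up at most 0.941% of the summed CPM per kilobase of exons of *Fezf1* and *Fezf2* in wild-type libraries. In *Lmx1a*-/- libraries its share was at most 1.82%.

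*Bcl11b* (ENSMUSG00000048251, chromosome 12, 107910403 to 108003602, minus strand), the zinc finger gene downstream of *Fezf2* in subcerebral neurons, overlapped between genotypes. Its wild-type values were 114, 114, 129, 155 and 100 CPM, and its *Lmx1a*-/- values were 107, 109, 114, 94.5 and 112 CPM. All mutant libraries lay within or just under the wild-type range, and 1 of them, embryo 4, was below every wild-type library. Means were 122 ± 20.9 and 107 ± 7.69 CPM (SD, n = 5 each), a log2 fold change of -0.19 (SE 0.11).

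*Bcl11a* (ENSMUSG00000000861, chromosome 11, 24078056 to 24174123, plus strand) had 100, 88.6, 177, 154 and 68.2 CPM in wild-type and 155, 170, 110, 135 and 126 CPM in *Lmx1a*-/- embryos 1 to 5. The mutant libraries all fell inside the wild-type range, which spanned 2.6-fold. Means were 118 ± 46 and 139 ± 23.9 CPM (SD, n = 5 each), a log2 fold change of 0.24 (SE 0.22), which was -0.54 with the choroid plexus list as a covariate. Of the summed CPM per kilobase of exons of both *Bcl11* genes, *Bcl11b* held 63.8% ± 6.26 in wild-type and 55.9% ± 4.95 in *Lmx1a*-/- CH. The ranges overlapped (54.1 to 70.4% and 51 to 62.8%). The annotated antisense genes *Gm12064* and *4930538E20Rik* overlap *Bcl11a* and averaged 5.52 and 1.80 CPM in wild-type CH against 5.73 and 1.64 CPM in *Lmx1a*-/- CH. Whether the counting used strand is not given in the sources used here, so their reads and those of *Bcl11a* may be mixed.

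*Tbr1* (ENSMUSG00000035033, chromosome 2, 61802930 to 61814114, plus strand), the T-box gene of early-born glutamatergic neurons, had 87.7, 58.5, 104, 43.3 and 70.7 CPM in wild-type embryos 1 to 5. The *Lmx1a*-/- embryos had 67.5, 91, 64.1, 45.6 and 56.5 CPM. Every mutant library lay inside the wild-type range, with wild-type embryo 3 highest and embryo 4 lowest of all 10. Means were 72.8 ± 23.8 and 64.9 ± 16.8 CPM (SD, n = 5 each), a log2 fold change of -0.17 (SE 0.22).

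*Tle4* (ENSMUSG00000024642, chromosome 19, 14448150 to 14598051, minus strand), the Groucho corepressor, had 73, 77.3, 83.9, 102.9 and 81.6 CPM in wild-type and 117, 141, 107, 103.4 and 101 CPM in *Lmx1a*-/- embryos 1 to 5. Of the mutant libraries, 4 were above every wild-type library, and embryo 5 was under wild-type embryo 4. Means were 83.7 ± 11.5 and 114 ± 16.4 CPM (SD, n = 5 each), a log2 fold change of 0.44 (SE 0.11). This call was narrow: without wild-type embryo 1, 2 or 5, or *Lmx1a*-/- embryo 2, the log2 fold change was 0.40, 0.41, 0.43 or 0.35 and no longer past the threshold. It was 0.18 with the choroid plexus list, 0.58 with *Xist* and 0.45 with the neuron list as a covariate, 0.44 with embryo number as a block and 0.64 among libraries with Y-linked transcripts, and past the threshold in none of these 5 fits. *Tle4* was 23.2% ± 4.18 of the summed CPM per kilobase of exons of *Tle1* to *Tle4* in wild-type CH. In *Lmx1a*-/- CH its share was 29.9% ± 6.05. The ranges were 19.3 to 29% in wild-type and 23.4 to 36.7% in *Lmx1a*-/- libraries.

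*Pou3f2* (ENSMUSG00000095139, chromosome 4, 22482780 to 22488366, minus strand) had 17, 33.8, 33, 10.6 and 21.3 CPM in wild-type and 16.7, 19, 14.6, 15.9 and 31.4 CPM in *Lmx1a*-/- embryos 1 to 5. Mutant embryo 5 stood apart from the other 4, which were between 14.6 and 19 CPM, and all 5 were inside the wild-type range. Means were 23.1 ± 10.1 and 19.5 ± 6.83 CPM (SD, n = 5 each), a log2 fold change of -0.25 (SE 0.30), whose sign turned to 0.19 when only libraries with Y-linked transcripts were compared and to 0.25 with *Xist* as a covariate.

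*Pou3f3* (ENSMUSG00000045515, chromosome 1, 42695768 to 42703176, plus strand) had 106, 77.9, 163, 49.8 and 78.8 CPM in wild-type and 153, 119, 94.3, 130 and 132 CPM in *Lmx1a*-/- embryos 1 to 5. The mutant libraries were inside the wild-type range because wild-type embryo 3 exceeded them all. Means were 95.1 ± 42.9 and 125 ± 21.3 CPM (SD, n = 5 each), a log2 fold change of 0.40 (SE 0.24), which without wild-type embryo 3 was 0.68 and past the threshold, and with the choroid plexus list as a covariate was -0.15. *Pou3f3* made up 75.3% ± 7.33 of the summed CPM per kilobase of exons of *Pou3f2* and *Pou3f3* in wild-type CH. Its share was 83% ± 4.39 in *Lmx1a*-/- CH. *AC122898.1*, an annotated transcript that overlaps *Pou3f3* on the same strand, was at 0.182 and 0.714 CPM (wild-type and *Lmx1a*-/- means).

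At an FDR under 0.1, 2 of the 8 genes (*Fezf2* and *Tle4*) were past the threshold in the direction of higher expression in *Lmx1a*-/- CH and 0 were past it for lower expression, where 4.02% of all genes tested passed it (1.72% higher and 2.29% lower). DESeq2 and edgeR's likelihood ratio test also placed 2 past it for higher and 0 for lower expression, and at an unadjusted p under 0.05 there were 3 higher and 0 lower. Ranges of the genotypes did not overlap for 1 of the 8, against 4.44% of all genes tested. Since this contrast was in view when the genes were chosen, nothing is read from these counts. The median log2 fold change of the 8 was 0.32, beside -0.005 over all genes tested, with 5 genes above and 3 below 0.

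**Figure D2:**
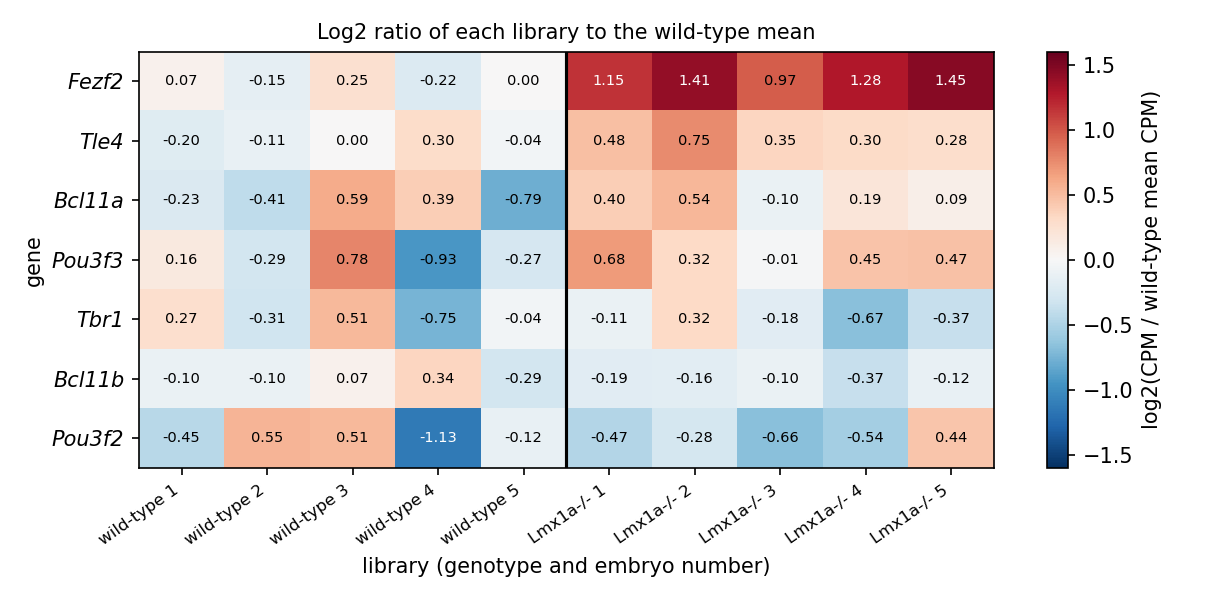
Log2 ratio of each library's CPM to the wild-type mean (color and printed value) for 7 of the genes (rows) in the 5 wild-type and 5 *Lmx1a*-/- libraries (columns), without *Fezf1*, which had 0 counts in 2 libraries. The *Fezf2* row runs from 0.97 to 1.45 in mutant libraries, and columns wild-type 3 and wild-type 4 have opposite signs for *Fezf2*, *Tbr1*, *Pou3f2* and *Pou3f3*.

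The spread between embryos of 1 genotype was wide for 5 of the 8 genes. The biological coefficient of variation that edgeR estimated around the genotype means was 1.03 for *Fezf1*, 0.252 for *Bcl11a*, 0.25 for *Tbr1*, 0.332 for *Pou3f2* and 0.274 for *Pou3f3*. Each was above that of 96.9 to 97.8% of the 1000 genes nearest in abundance, whose medians were 0.542, 0.116, 0.125, 0.17 and 0.117. *Fezf2*, *Bcl11b* and *Tle4* had 0.136, 0.135 and 0.14, above 76.1 to 78.8% of genes near them in abundance. Wild-type embryo 3 was the highest wild-type library for 4 of the 8 genes (*Fezf2*, *Bcl11a*, *Tbr1* and *Pou3f3*), and wild-type embryo 4 was the lowest for 4 (*Fezf2*, *Tbr1*, *Pou3f2* and *Pou3f3*) and the highest for *Bcl11b* and *Tle4*. Among mutant libraries, *Lmx1a*-/- embryo 3 was lowest for *Fezf2*, *Bcl11a*, *Pou3f2* and *Pou3f3*.

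Wild-type embryos 3 and 4 were also the highest and the lowest wild-type libraries for the neuroepithelium and neuron marker lists, though embryo 4 was at neither end for the CH, CR and choroid plexus lists. The summed CPM of 14 markers of cortical neuroepithelium was 1129, 946, 1198, 711 and 1052 in wild-type embryos 1 to 5 and 1401, 1381, 1126, 1280 and 1181 in *Lmx1a*-/- embryos 1 to 5. Of these markers *Emx2*, *Dmrt3* and *Dmrta1* were past the threshold, all 3 higher, and all 14 were above 1 CPM in at least 1 library. The sum of 12 markers of postmitotic neurons ran from 773 (embryo 4) to 1289 (embryo 3) in wild-type and from 892 to 1386 in *Lmx1a*-/- CH, and none of the 12 was past the threshold in edgeR's quasi-likelihood test, its likelihood ratio test or DESeq2, with 2 higher at an unadjusted p under 0.05. *Fezf2* was 8.2 to 10.6 CPM per 100 summed CPM of the neuroepithelium list in wild-type and 14 to 20.5 in *Lmx1a*-/- libraries, and 7.86 to 9.79 and 17.2 to 24 per 100 summed CPM of the neuron list. *Tle4* was 6.46 to 14.5 and 8.08 to 10.2 per 100 summed CPM of the neuroepithelium list. Against the same list *Pou3f3* was 7 to 13.6 and 8.37 to 11.2, and *Tbr1* was 6.09 to 8.67 and 3.56 to 6.59. Since *Fezf2* was chosen for its difference between these genotypes, nothing is read from the separation of its ratios. The part of cell composition in these differences was not tested.

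**Figure D3:**
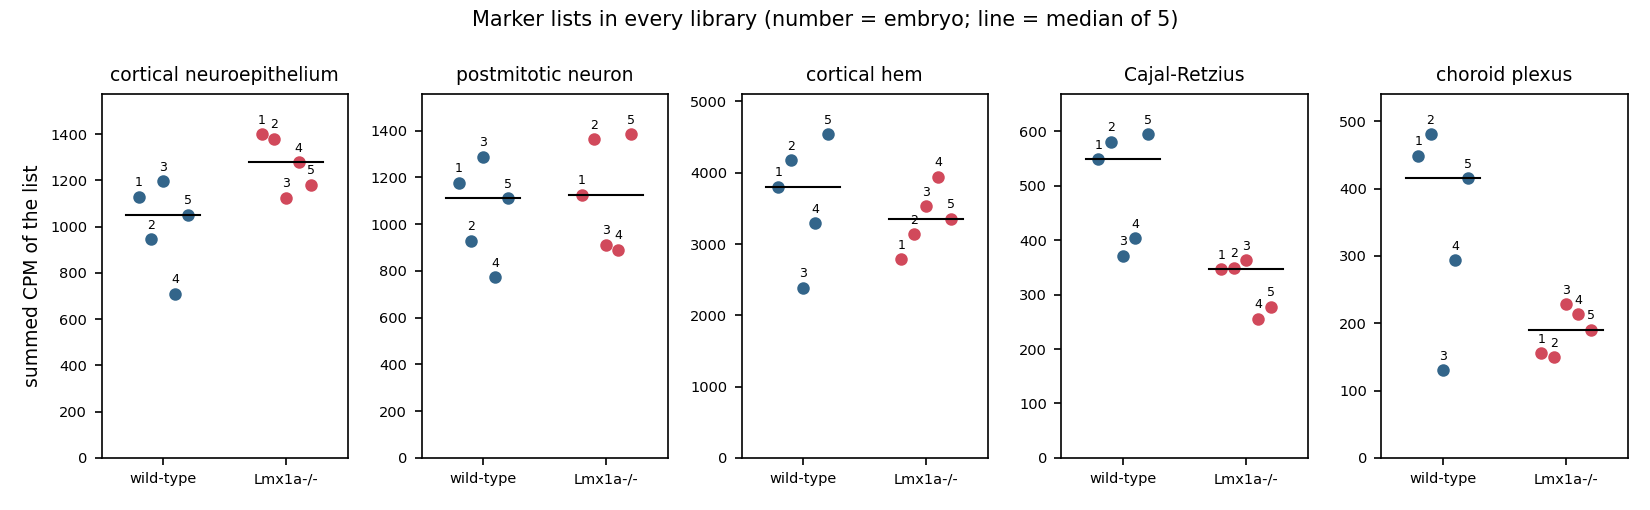
Summed CPM of 5 marker lists (vertical axes from 0, a scale for each list) in the wild-type (blue) and *Lmx1a*-/- (red) libraries, with embryo numbers and the median of 5 as a line. Cortical neuroepithelium sums are 711 to 1198 in wild-type and 1126 to 1401 in *Lmx1a*-/- CH, choroid plexus sums have medians of 415 and 191, and wild-type embryo 3 is lowest for both cortical hem and choroid plexus.

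Facts of the libraries touch each of these values. *Lmx1a* transcripts were present in both genotypes (71.2 ± 18.2 and 114 ± 21 CPM), so their level does not check the labels, and *drJ* transcripts are not separated from wild-type ones. CH markers were detected throughout (2390 to 4544 summed CPM in wild-type, 2791 to 3942 in *Lmx1a*-/- libraries), with 6 of 14 lower and 1 higher past the threshold. The 1 higher gene was *Lmx1a* itself. Although the sums overlapped, the median log2 fold change of the 14 was -0.43, with 3 above and 11 below 0. The CR list of 11 genes (371 to 595 and 256 to 363 summed CPM) had 4 lower, 1 higher and *Calb2* under 1 CPM everywhere. Choroid plexus sums were 130 to 481 and 149 to 228 CPM, with 2 of 10 genes lower in edgeR's quasi-likelihood test and *Kl* under 1 CPM everywhere. In that test 8 of the 10 were lower at an unadjusted p under 0.05. DESeq2 and the likelihood ratio test each placed 6 lower, and the median log2 fold change was -1.23. Erythroid sums did not overlap between genotypes (590 to 1287 and 254 to 541 CPM), with 0 of 6 genes past the threshold in edgeR's quasi-likelihood test, 3 lower at an unadjusted p under 0.05, 3 lower by DESeq2 and the globin *Hba-a2* under 1 CPM everywhere. Mesenchyme sums were 275.2 to 876 and 223 to 478 CPM, with 2 of 8 genes lower. Diencephalon, endothelium and microglia sums overlapped and were at most 192, 77.4 and 23.9 CPM. The part of these tissues in the results was not tested. *Xist* was between 4515 and 5127 CPM in wild-type embryos 2 to 5 and at most 1.1 CPM in wild-type embryo 1 and all 5 mutants, and the summed level of *Ddx3y*, *Eif2s3y*, *Kdm5d* and *Uty* was 333 to 467 CPM in those 6 libraries and at most 0.0604 CPM in the other 4. Only 1 wild-type library shares the sex-linked transcripts of the mutants, so genotype and these differences cannot be told apart. Among those 6 libraries, 1 wild-type against 5 mutants, the *Fezf2* log2 fold change was 1.19, given as a value alone. It was 1.16 with *Xist* and 0.97 with the choroid plexus list as a covariate, not past the threshold in either.

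Levels of the 8 genes were compared per kilobase of exons. In wild-type CH the order of means was *Fezf2* (29 ± 3.8 CPM per kb), *Bcl11b* (15.1 ± 2.58), *Tle4* (14.7 ± 2.01), *Tbr1* (13.3 ± 4.34), *Pou3f3* (12.8 ± 5.79), *Bcl11a* (8.93 ± 3.49), *Pou3f2* (4.14 ± 1.81) and *Fezf1* (0.115 ± 0.124; SD, n = 5 embryos). *Fezf2* was above *Bcl11b*, and *Pou3f2* above *Fezf1*, in 5 of 5 embryos without overlap of the ranges. The 5 genes from *Bcl11b* to *Bcl11a* were not separated from their neighbors in this order beyond the spread between embryos. *Bcl11a* was above *Pou3f2* in each embryo, though the ranges overlapped. In *Lmx1a*-/- CH *Fezf2* stood at 69.5 ± 9.23 CPM per kb, followed by *Tle4* (20 ± 2.88), *Pou3f3* (16.9 ± 2.88), *Bcl11b* (13.2 ± 0.948), *Tbr1* (11.8 ± 3.06), *Bcl11a* (10.5 ± 1.82), *Pou3f2* (3.5 ± 1.22) and *Fezf1* (0.568 ± 0.603). *Fezf2* thus was at the 95.1th percentile of all genes tested in wild-type and the 98.7th in *Lmx1a*-/- CH. With the longest transcript in place of all exons, *Bcl11a* moved to rank 2 in wild-type CH and *Bcl11b* to rank 5, since the annotated *Bcl11a* exons sum to 13.2 kb and its longest transcript is 5.99 kb.

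**Figure D4:**
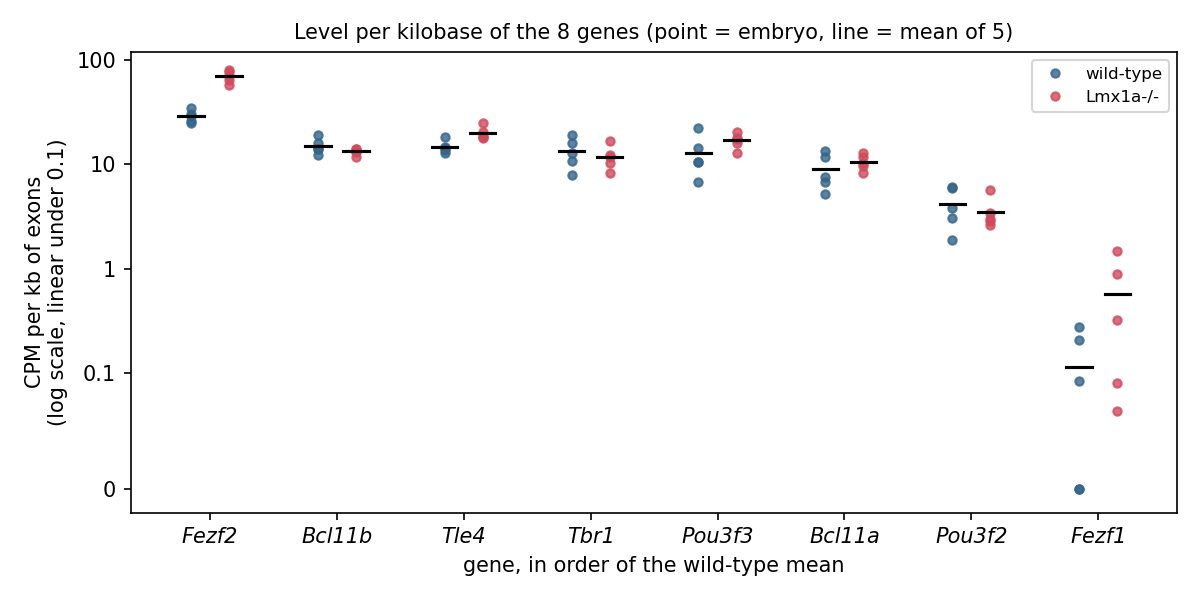
CPM per kilobase of exons (log scale, linear under 0.1) for the 8 genes, ordered by the wild-type mean, with 1 point per embryo and the mean of 5 as a line, wild-type in blue and *Lmx1a*-/- in red. *Fezf2* is highest in both genotypes (29 and 69.5 CPM per kb), *Fezf1* lowest, and the 5 genes from *Bcl11b* to *Bcl11a* lie close together in wild-type CH.

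Of the other genes of these programmes, 75 had been listed in 7 groups, and 69 distinct genes could be tested. Past the threshold were 1 higher and 4 lower in *Lmx1a*-/- CH, where 1.72% of all genes tested were higher and 2.29% lower. The median log2 fold change of the 69 was -0.04, and 29 were above and 40 below 0. With *Xist* or the choroid plexus list as a covariate, 0 of the 69 were past it in edgeR's quasi-likelihood test. The lists were compiled with results of these libraries known.

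Among 16 genes of deep-layer neurons, 1 was higher and 2 were lower in edgeR's quasi-likelihood test, with a median log2 fold change of -0.10. DESeq2 placed 2 higher and 4 lower, and the likelihood ratio test 1 higher and 4 lower. *Sox5*, a SoxD factor that controls the timing of deep-layer neuron production, had 45.8, 54.9, 74.7, 38.5 and 53.7 CPM in wild-type and 95.3, 103, 88.7, 85.2 and 130 CPM in *Lmx1a*-/- embryos 1 to 5. All mutant libraries were above all wild-type libraries, at a log2 fold change of 0.91 (SE 0.16, FDR = 0.0111 by edgeR quasi-likelihood). *Nr4a2* (Nurr1), a nuclear receptor of subplate neurons, fell from 57.2 ± 14.9 to 20.6 ± 5.07 CPM (SD, n = 5 each), with every wild-type library (33.3 to 69.4 CPM) above every mutant one (13.5 to 25.5 CPM) and a log2 fold change of -1.47 (SE 0.21, FDR = 0.0028 by edgeR quasi-likelihood). *Syt6*, a synaptotagmin gene of corticothalamic neurons, fell from 7.13 ± 2.27 to 3.62 ± 0.659 CPM (log2 fold change -0.98, FDR = 0.0548 by edgeR quasi-likelihood), and was not past the threshold without wild-type embryo 1 (-0.80) or *Lmx1a*-/- embryo 4 (-0.99). *Pcp4*, a calmodulin regulator (2.76 ± 1.08 and 1.11 ± 0.455 CPM), did not pass in this test (FDR = 0.106 by edgeR quasi-likelihood) but was lower by DESeq2 and the likelihood ratio test.

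Among 14 genes of upper-layer neurons, 0 were higher and 1 was lower in edgeR's quasi-likelihood test, with a median log2 fold change of -0.15. DESeq2 placed 1 higher and 2 lower, and the likelihood ratio test 0 higher and 2 lower. The gene of the quasi-likelihood test was *Cux2*, a homeobox gene of upper-layer neurons and of some dividing cells, which fell from 69.8 to 24 CPM (log2 fold change -1.54, SE 0.27, FDR = 0.00946 by edgeR quasi-likelihood). Its ranges overlapped (37.3 to 98.3 CPM in wild-type and 16.1 to 37.6 CPM in *Lmx1a*-/- libraries). The study describes *Cux2* as expressed in the CH itself, where it was the one *Lmx1a* target known before. Its fall is therefore not read as a change in upper-layer neurons. *Lmo4*, *Bhlhe22* and *Mdga1* did not pass in that test (25.8 and 13.3 CPM, 3.9 and 6.92 CPM, and 60.9 and 49.3 CPM in wild-type and *Lmx1a*-/- CH). *Lmo4* was lower by DESeq2 (FDR = 0.0258) and the likelihood ratio test (FDR = 0.066), and *Bhlhe22* was higher by DESeq2 (FDR = 0.0916).

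None of the 7 other POU genes tested was past the threshold in edgeR's test or DESeq2, and 0 had an unadjusted p under 0.05 (median log2 fold change -0.005). These included *Pou4f1*, *Pou2f2* and *Pou6f1*, which were among the 4 with the smallest p. Their means in wild-type and *Lmx1a*-/- CH were 1.75 and 1.33 CPM, 7.96 and 6.94 CPM, and 19.1 and 21.1 CPM. *Pou3f2* and *Pou3f3* together held 87.7% ± 3.54 of the summed CPM per kilobase of exons of *Pou3f1* to *Pou3f4* in wild-type CH. Their share was 90.4% ± 3.39 in *Lmx1a*-/- CH.

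In the Groucho family *Tle3* was lower, from 89.8 ± 6.67 to 70.3 ± 9.8 CPM (SD, n = 5 each), with all wild-type libraries above all mutant ones and a log2 fold change of -0.35 (SE 0.10, FDR = 0.0907 by edgeR quasi-likelihood). This call was lost in 7 of the 10 fits without 1 embryo (wild-type embryo 1, 2, 4 or 5, or *Lmx1a*-/- embryo 3, 4 or 5), with log2 fold changes of -0.41 to -0.30 over the 10. *Tle1* (362 and 361 CPM), *Tle2* (2.12 and 1.82 CPM) and *Aes* (44.7 and 42.3 CPM) did not pass.

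None of 21 genes of the BAF complex, the chromatin remodeler to which Bcl11a and Bcl11b proteins belong, was past the threshold in edgeR's quasi-likelihood test (median log2 fold change 0.03), with 2 higher and 0 lower at an unadjusted p under 0.05 and 1 higher, *Actl6b*, by DESeq2 and the likelihood ratio test. The 4 with the smallest p were *Actl6b* (0.414 and 1.26 CPM), *Smarce1* (170 and 189 CPM, with all mutant libraries above all wild-type ones), *Smarcd3* (7.21 and 9.19 CPM) and *Ss18* (59.8 and 65.4 CPM). The T-box genes *Eomes* (Tbr2; 88.9 ± 23.4 and 62.5 ± 9.45 CPM, FDR = 0.129 by edgeR quasi-likelihood) and *Tbx21* (0.492 and 0.336 CPM) did not pass in edgeR's quasi-likelihood test, while *Eomes* was lower by DESeq2 and the likelihood ratio test. Of 6 genes linked to *Fezf2* function, 0 passed by edgeR or DESeq2 and 2 were higher at an unadjusted p under 0.05. All 6 log2 fold changes were above 0 (median 0.40), as were 10702 of all 21664 genes tested. The list was not divided by the direction in which *Fezf2* acts on each gene, so nothing is read from the shared sign. *Hes5* and *Lhx2* are also in the cortical neuroepithelium list. With the choroid plexus list as a covariate the log2 fold changes of *Ephb1* and *Lhx2* were -0.15 and -0.004, and that of *Hes5* was -0.001 among libraries with Y-linked transcripts. Of the 6 genes, those with the smallest p were *Hes5* (53 and 68.8 CPM), a Notch effector, *Lhx2* (272 and 366 CPM), a LIM homeodomain gene of the neuroepithelium, *Ephb1* (64.4 and 88.7 CPM), an axon guidance receptor, and *Gad1* (2.89 and 4.54 CPM), of GABA synthesis.

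**Figure D5:**
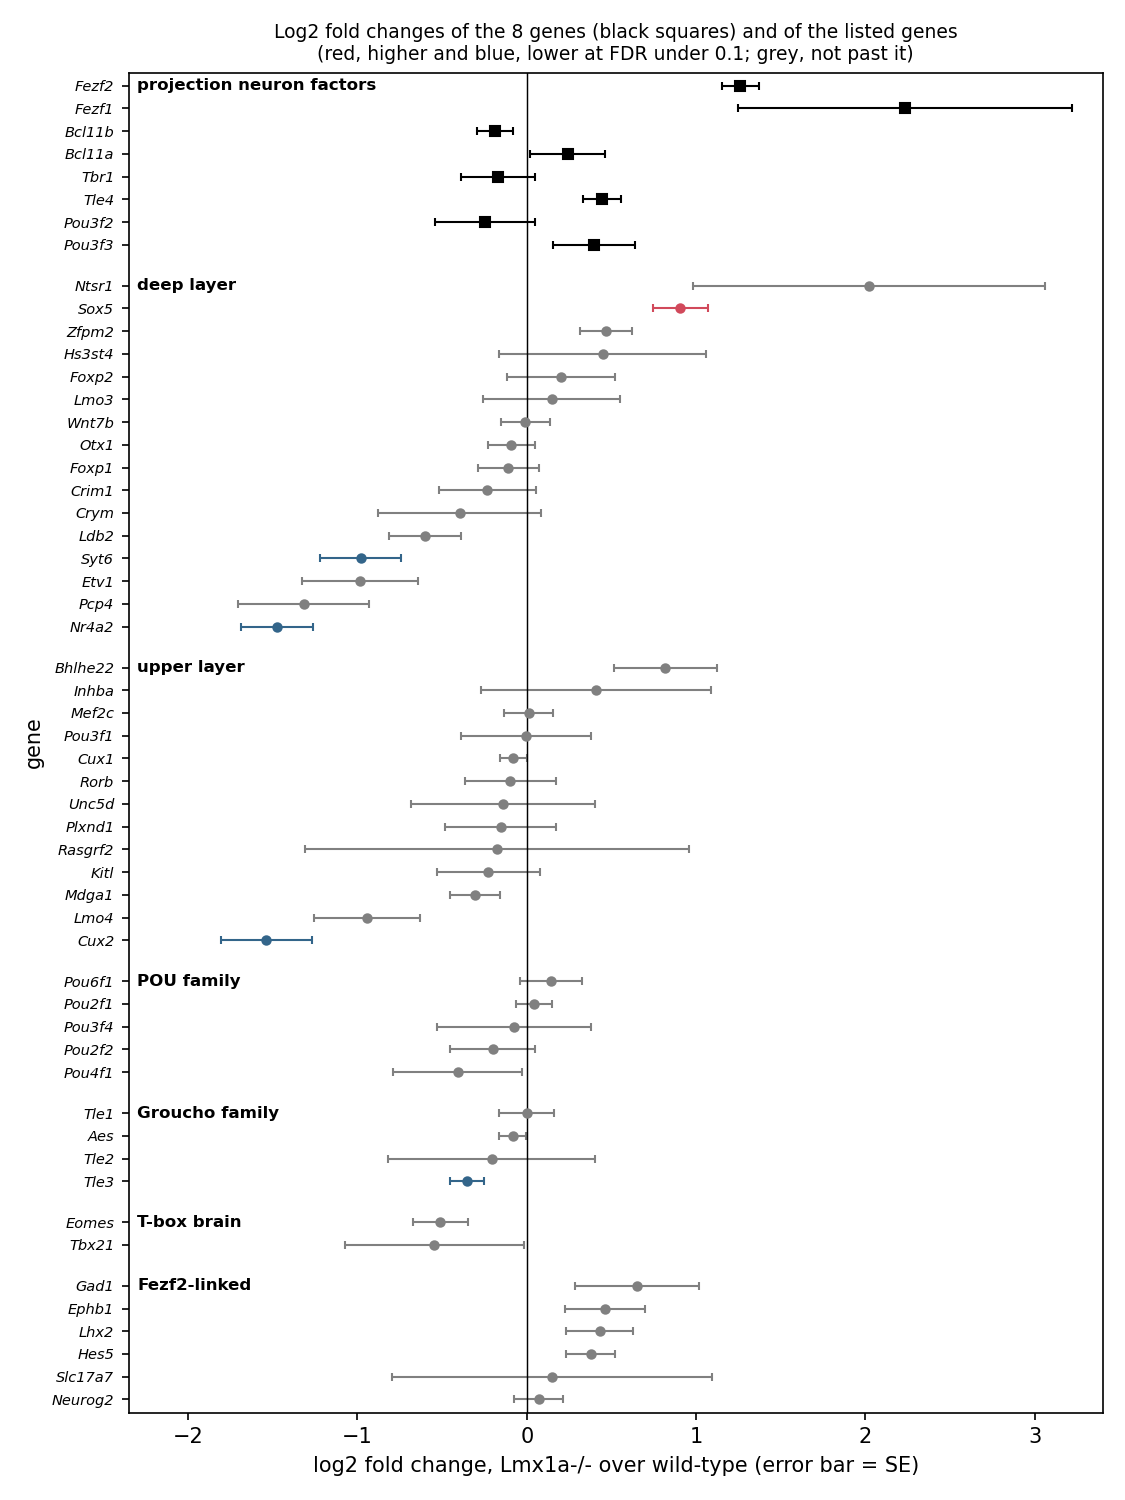
Log2 fold change of *Lmx1a*-/- over wild-type CH (horizontal axis, error bars SE) for the 8 genes (black squares, described without a test) and for tested genes of 6 lists, the BAF list left out and *Pou3f1* drawn once, with higher genes in red, lower genes in blue and genes not past an FDR under 0.1 in grey. *Fezf2* (1.26) and *Sox5* (0.91) lie to the right with short error bars, *Nr4a2* (-1.47) and *Cux2* (-1.54) to the left, and the wide bar of *Fezf1* (2.23, SE 0.99) goes with counts of 0 to 102.

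Genes within 100 kb of the 8 genes were examined next. Of 37 annotated genes 17 were tested, and 2 were past the threshold, both higher in *Lmx1a*-/- CH. *C130093G08Rik* (ENSMUSG00000106775, chromosome 6, 23251133 to 23253358, plus strand), a candidate transcript in the annotation, starts 2.77 kb from *Fezf1* on the opposite strand. It had 0.448, 0.18, 0.265, 0.208 and 0.517 CPM in wild-type and 3.29, 0.924, 0.647, 1.61 and 4.59 CPM in *Lmx1a*-/- embryos 1 to 5. At these low levels it was not kept by the alternative filter of at least 1 CPM in 5 libraries. Its genotypes did not overlap (log2 fold change 2.75, SE 0.57, FDR = 0.0259 by edgeR quasi-likelihood), and mutant embryos 1 and 5 were the highest, as they were for *Fezf1*. *Pantr1* (ENSMUSG00000060424, chromosome 1, 42590782 to 42694842, minus strand), a long noncoding RNA gene whose start lies 0.926 kb from that of *Pou3f3* on the opposite strand, had 11.1, 10.5, 25.7, 7.99 and 11.7 CPM in wild-type and 28.4, 21.1, 20.7, 32.5 and 41.3 CPM in *Lmx1a*-/- embryos 1 to 5. Wild-type embryo 3 overlapped the mutants, as it did for *Pou3f3*, and the log2 fold change was 1.10 (SE 0.29, FDR = 0.0732 by edgeR quasi-likelihood). The call of *Pantr1* was lost in 7 of the 10 fits without 1 embryo (wild-type embryo 1, 2, 4 or 5, or *Lmx1a*-/- embryo 1, 4 or 5). None of the 4 tested genes near *Fezf2* was past the threshold by edgeR or DESeq2, with 1 higher at an unadjusted p under 0.05, and *Cadps*, 24.4 kb away, had 192 ± 95.2 and 233 ± 71.2 CPM (SD, n = 5 each).

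The 5 genes whose deviations from the genotype means were most like those of *Fezf2* included *Rbpj* (Pearson r = 0.955), *Vps50* (0.941), *Kif21a* (0.94) and *Neurod1* (0.94), among 11548 genes with a mean of at least 5 CPM over the 10 libraries. These correlations describe 10 libraries that share tissue capture and depth and carry no test. *Pou3f3* had r = 0.734 and rank 411, *Pou3f2* 0.59 and rank 1089, *Tbr1* 0.569 and rank 1222, *Bcl11a* 0.292 and rank 3216, *Tle4* -0.09 and rank 6806, and *Bcl11b* -0.22 and rank 7983.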

How the data were processed

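RNA of laser-captured cortical hem (CH) from 5 wild-type and 5 *Lmx1a*-/- embryos was sequenced, 1 library per embryo. According to the submitters' processing notes, quality was checked with FastQC 0.11.8, reads were trimmed with Trimmomatic and aligned to GRCm38 with STAR 2.7.1a, and reads per gene were counted with HTSeq 0.11.2. The deposited values are raw read counts per gene made by the authors in this way, without filtering or scaling. The strand setting is not given in the sources used here. Of 52508 rows, 281 exact repeats were dropped.

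Genes that reached 10 counts in 3 or more libraries were kept, scaled by TMM and compared with edgeR 4.0.16 (quasi-likelihood test, R 4.3.3), with Benjamini-Hochberg adjustment over all 21664 genes and a threshold of FDR under 0.1. CPM are TMM-scaled, and lengths are exon unions in GENCODE M21. The CPM of *Xist*, of the Y-linked genes, of the floors and of genes not kept by the filter are by total counts, without TMM scaling. Each SE was the log2 fold change divided by the square root of F. The fit was tested on simulated counts. Named genes were the 8 genes, up to 4 genes per list with the smallest p, neighbors past the threshold or overlapping, and the 5 most like *Fezf2*, of which some are not reported here. The members and lists were chosen with earlier results of these data known. *Fezf2*, *Tle4*, *Pou3f3* and *Tbr1* relative to the marker sums were added after their values were seen. Embryo numbers did not pair libraries (correlations of deviations from -0.08 to 0.009). Alternatives were DESeq2 1.42.0, edgeR's likelihood ratio test and newer dispersion method, other scalings, filters and thresholds, covariates, a replicate block and each embryo left out. Depth was 19145952 to 36462780 counts per library, and floors of 3 counts cover counting error only.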

Additional observations from a re-analysis of the deposited data

Results flagged for a closer look

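Among 76 groups of 5 libraries (38 named genes in each genotype), 9 held a library far from the others of its genotype by Dixon's test, where chance flags about 1 in 20. *Pou3f2* in *Lmx1a*-/- embryo 5 was at 31.4 CPM, with the other 4 mutants at 14.6 to 19 CPM. *Lmx1a*-/- embryo 5 was also the highest mutant for *Pcp4* (1.91 CPM), *Smarce1* (214 CPM) and *Tle2* (4.73 CPM), and *Lmx1a*-/- embryo 2 was the lowest for *Hes5* (58.5 CPM). In wild-type CH the high libraries were embryo 4 for *Aes* (47.9 CPM) and *Lmo4* (47.9 CPM, the others at 16.6 to 22.9), embryo 5 for *Smarcd3* (9.68 CPM) and embryo 3 for *Pantr1* (25.7 CPM, the others at 7.99 to 11.7). The causes were not tested.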

How the results depend on the processing

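Of the 8 genes, 2 were past the threshold, and the number was 1 at an FDR under 0.05, 1 with the replicate block, 1 with the postmitotic neuron covariate, 1 among libraries with Y-linked transcripts, and 0 with the *Xist* covariate or the choroid plexus covariate (1 to 3 without 1 embryo). The libraries with Y-linked transcripts are 1 wild-type and 5 mutants, and the lone library is assumed to vary like the others. The *Xist* and choroid plexus covariates follow genotype (r = -0.83 and -0.82 over 10 libraries). Without wild-type embryo 1, 2 or 5 or *Lmx1a*-/- embryo 2 the number was 1, and without wild-type embryo 3 it was 3. Listed genes past the threshold, 5 here, numbered 10 with the likelihood ratio test, 12 with DESeq2, 3 at an FDR under 0.05, 0 with *Xist* or choroid plexus, and 2 among Y-linked libraries (3 to 8 without 1 embryo, with 3 without wild-type embryo 1 or *Lmx1a*-/- embryo 4 and 8 without wild-type embryo 3). Neighboring genes, 2 here, numbered 1 with the CPM filter, 1 at an FDR under 0.05, 1 with the replicate block, and 0 with *Xist*, choroid plexus, the neuron list or Y-linked libraries alone (1 to 3 without 1 embryo). All genes past the threshold, 870 here, numbered 1360 with the likelihood ratio test, 1766 with DESeq2, 448 at an FDR under 0.05, 25 with *Xist*, 12 with choroid plexus, 397 with the neuron list and 130 among Y-linked libraries (451 to 1059 without 1 embryo, with 504 or 551 without wild-type embryo 1 or 2 and 578, 451 or 546 without *Lmx1a*-/- embryo 2, 4 or 5). A stricter threshold lowers counts by construction, and the other causes were not tested. Over the 8 genes and all fits, 203 of 207 log2 fold changes kept their sign. The setting at an FDR under 0.05 reuses the main fit, so its signs could not change. The other fits share most or all of their libraries, so nothing is read from this count. Embryo numbers share only a number (no library was most like its own number in the other genotype), and with the replicate block 601 genes passed. Depth limits *Fezf1*, with 41 counts over the wild-type libraries.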
